A study of Mus musculus with 10 samples.

Results

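Cytochrome P450 enzymes of the *Cyp3a*, *Cyp2b*, *Cyp2d* and *Cyp1a* families and the receptors that regulate them were examined in proximal small intestine of *Zip14* (*Slc39a14*) knockout and wild-type mice. The set holds 10 genes of the 35275 Ensembl gene IDs that were counted, taken by symbol: *Cyp3a11*, *Cyp3a13*, *Cyp3a25*, *Cyp2b10*, *Cyp2d26*, *Cyp1a1*, *Nr1i2*, *Nr1i3*, *Ahr* and *Por*. RNA-seq libraries were made from 5 WT and 5 KO mice, 1 mouse each, aged 8 to 10 weeks per the labels. The methods of the study describe the knockout used for RNA-seq as a whole-body deletion with WT controls of the same strain from heterozygous matings, whereas the series title names an enterocyte deletion. The group is called KO here after its label. The tissue was a section of whole intestine, so that epithelium, muscle and immune cells were measured together.

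These enzymes oxidize drugs, plant compounds, bile acids and steroids, and in the small intestine they act on ingested compounds in the enterocyte before absorption into the portal blood. Each P450 is a heme protein in the membrane of the endoplasmic reticulum and receives its electrons from cytochrome P450 oxidoreductase, the product of *Por*. Transcription of *Cyp3a* and *Cyp2b* genes is induced through the nuclear receptors PXR (*Nr1i2*) and CAR (*Nr1i3*), which bind DNA with RXR, and that of *Cyp1a1* through the aryl hydrocarbon receptor (*Ahr*) with its partner ARNT.

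All 10 genes fell in the KO libraries, between 1.35-fold for *Nr1i2* and 86.6-fold for *Cyp2b10*, by edgeR's quasi-likelihood test over 15610 genes with Benjamini-Hochberg adjustment at a threshold of 0.05. Across all genes tested, 29.9% were called, 13.9% as lower and 16.0% as higher. The groups did not overlap for 8 of the 10, with every KO library below every WT library, and 10.8% of all genes tested had that pattern (21.1% did not overlap in either direction). The median log2 fold change was -2.77 over the 10 genes and 0.03 over all genes tested. The genes were chosen with earlier results of these data known, so that their count is a description. In bulk tissue, fewer cells of a type and less RNA per cell cannot be told apart.

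Promoter sequences are shown for the 4 enzyme genes with the largest falls, since the regulators named above act at DNA elements near such genes. They are from RefSeq (GRCm38.p6), read on the gene's strand, and cover 250 bases before and 50 after the start of transcription. Capitals mark GCGTG, the core bound by the aryl hydrocarbon receptor, and AGTTCA or AGGTCA, half-sites of nuclear receptors, each searched on both strands. *Cyp3a11* is from chr5:145879805-145880104 (minus strand), *Cyp3a25* from chr5:146009569-146009868 (minus strand), *Cyp2b10* from chr7:25897408-25897707 (plus strand) and *Cyp1a1* from chr9:57697363-57697662 (plus strand). For *Cyp1a1*, *Cyp3a11* and *Cyp2b10* the RefSeq start lies inside the longer gene span of GENCODE, and motif positions are counted from the RefSeq start.
Cyp3a11: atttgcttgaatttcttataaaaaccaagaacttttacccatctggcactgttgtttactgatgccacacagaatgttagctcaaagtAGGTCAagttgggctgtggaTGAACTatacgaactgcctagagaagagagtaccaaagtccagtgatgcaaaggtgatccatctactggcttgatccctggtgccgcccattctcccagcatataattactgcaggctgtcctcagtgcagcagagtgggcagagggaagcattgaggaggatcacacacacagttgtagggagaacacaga
Cyp3a25: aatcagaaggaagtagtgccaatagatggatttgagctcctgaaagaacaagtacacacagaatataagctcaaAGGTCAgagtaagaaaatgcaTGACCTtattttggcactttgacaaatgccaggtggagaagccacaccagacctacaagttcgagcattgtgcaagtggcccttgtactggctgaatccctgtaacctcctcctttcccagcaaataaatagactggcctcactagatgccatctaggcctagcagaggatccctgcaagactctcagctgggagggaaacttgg
Cyp2b10: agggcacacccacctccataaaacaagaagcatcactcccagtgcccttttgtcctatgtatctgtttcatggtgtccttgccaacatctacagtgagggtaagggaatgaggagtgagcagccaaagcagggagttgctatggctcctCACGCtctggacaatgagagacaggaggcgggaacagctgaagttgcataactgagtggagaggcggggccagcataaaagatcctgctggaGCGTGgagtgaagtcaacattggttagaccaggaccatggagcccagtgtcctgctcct
Cyp1a1: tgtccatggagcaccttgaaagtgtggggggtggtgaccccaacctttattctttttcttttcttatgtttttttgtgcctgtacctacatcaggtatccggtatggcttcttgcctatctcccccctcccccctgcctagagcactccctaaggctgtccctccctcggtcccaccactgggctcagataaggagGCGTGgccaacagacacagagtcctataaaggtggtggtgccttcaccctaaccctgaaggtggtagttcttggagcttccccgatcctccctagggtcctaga

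In *Cyp3a11*, AGGTCA began at position -162 from the start of transcription and AGTTCA, on the other strand, at -142. The neighbouring *Cyp3a25* had AGGTCA at -176 and again, on the other strand, at -155. *Cyp1a1* had a single GCGTG at -54, upstream of a TATAAA at -30, while *Cyp2b10* had GCGTG at -101 (other strand) and at -9. Of 27025 mouse promoters of this length, 32.5% hold GCGTG, 14.0% AGTTCA, 16.0% AGGTCA and 14.2% TATAAA on either strand. Promoters were matched for 9 of the 10 genes, all but *Ahr*. GCGTG was present in 3 copies in *Por*, and those of *Cyp3a13*, *Cyp2d26*, *Nr1i2* and *Nr1i3* held none of the 3 marked motifs in this window. The matches are letters in a window and no binding was measured.

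Levels are given as CPM, counts scaled to a common library size by TMM normalization. Total counts were between 16729787 and 20819678 in WT and between 17118742 and 19414828 in KO libraries. *Slc39a14*, the targeted gene, had 190.8 to 357 CPM in WT and 78.5 to 160.1 CPM in KO libraries (log2 fold change -1.35, or 39.3% of the WT level). The study states that its expression is highest in proximal intestine and declines along the gut. The part of the deletion in this fall was not tested. The KO libraries, labelled as proximal intestine, carried ileum genes: the summed level of 8 ileum markers was 695 to 1449 CPM in WT and 4108 to 11260 CPM in KO libraries (6 of 8 higher), and *Fabp6*, the ileal bile acid binding protein, went from at most 1.74 CPM to at least 2307 CPM. Proximal enterocyte markers summed to 16790 to 28890 CPM in WT and 2047 to 5905 CPM in KO libraries (8 of 10 lower), and smooth muscle markers to 1719 to 2839 CPM and 3895 to 11430 CPM (9 of 10 higher). Pan-epithelial markers summed to 11730 to 13660 CPM in WT and 13760 to 19860 CPM in KO libraries, with 7 of 10 higher and 3 not past the threshold. Of these 3, *Cdh1* had a mean of 699.9 CPM in WT and 799 CPM in KO libraries, while *Vil1* (villin, 3086 and 2200 CPM) and *Krt20* (2226 and 1742 CPM) had lower means in KO, with 4 of 5 KO libraries below the lowest WT library. Hepatocyte markers summed to 718 to 1025 CPM in WT and 223 to 603 CPM in KO libraries, mostly from *Cps1* (893 and 415 CPM on average), and 2 of the 5 tested were lower (*Cps1* and *Apoa2*). *Alb*, the albumin gene, had a mean of 0.769 CPM in WT and 0.545 CPM in KO libraries, whereas *Tat* had 0.0828 and 10.9 CPM, without overlap but past the filter in too few libraries for the test, and *Cyp2e1* 3.46 and 15.7 CPM (edgeR adjusted p = 0.0564). Y-linked genes (4 checked) had at most 1 count in a library and *Xist* had 5485 to 9247 counts, the pattern of female mice in all 10 libraries. KO replicate 1 stood apart from the other KO libraries in some of these genes. *Hoxb9*, a posterior homeobox gene, had 0.282 CPM in it, at most 0.224 CPM in WT libraries and 42.9 to 62.3 CPM in KO replicates 2 to 5. *Gata4*, a regulator of proximal intestine, had 59.4 CPM in KO replicate 1, 0.572 to 13.9 CPM in KO replicates 2 to 5 and 160.3 to 217 CPM in WT libraries. Lactase (*Lct*) had 702 and 281 CPM in KO replicates 1 and 2, 0.315 to 3.08 CPM in KO replicates 3 to 5 and at least 3363 CPM in WT libraries. In *Fabp6* (3295 CPM) and the summed ileum (5350 CPM) and smooth muscle markers (4394 CPM), KO replicate 1 lay within the range of the other KO libraries. Without KO replicate 1 all 10 genes were still called lower by edgeR, and the values that it moved by over 1.5 times are given beside each gene. Genotype and these marker levels cannot be told apart, and no batch was named in the labels.

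**Figure D1:**
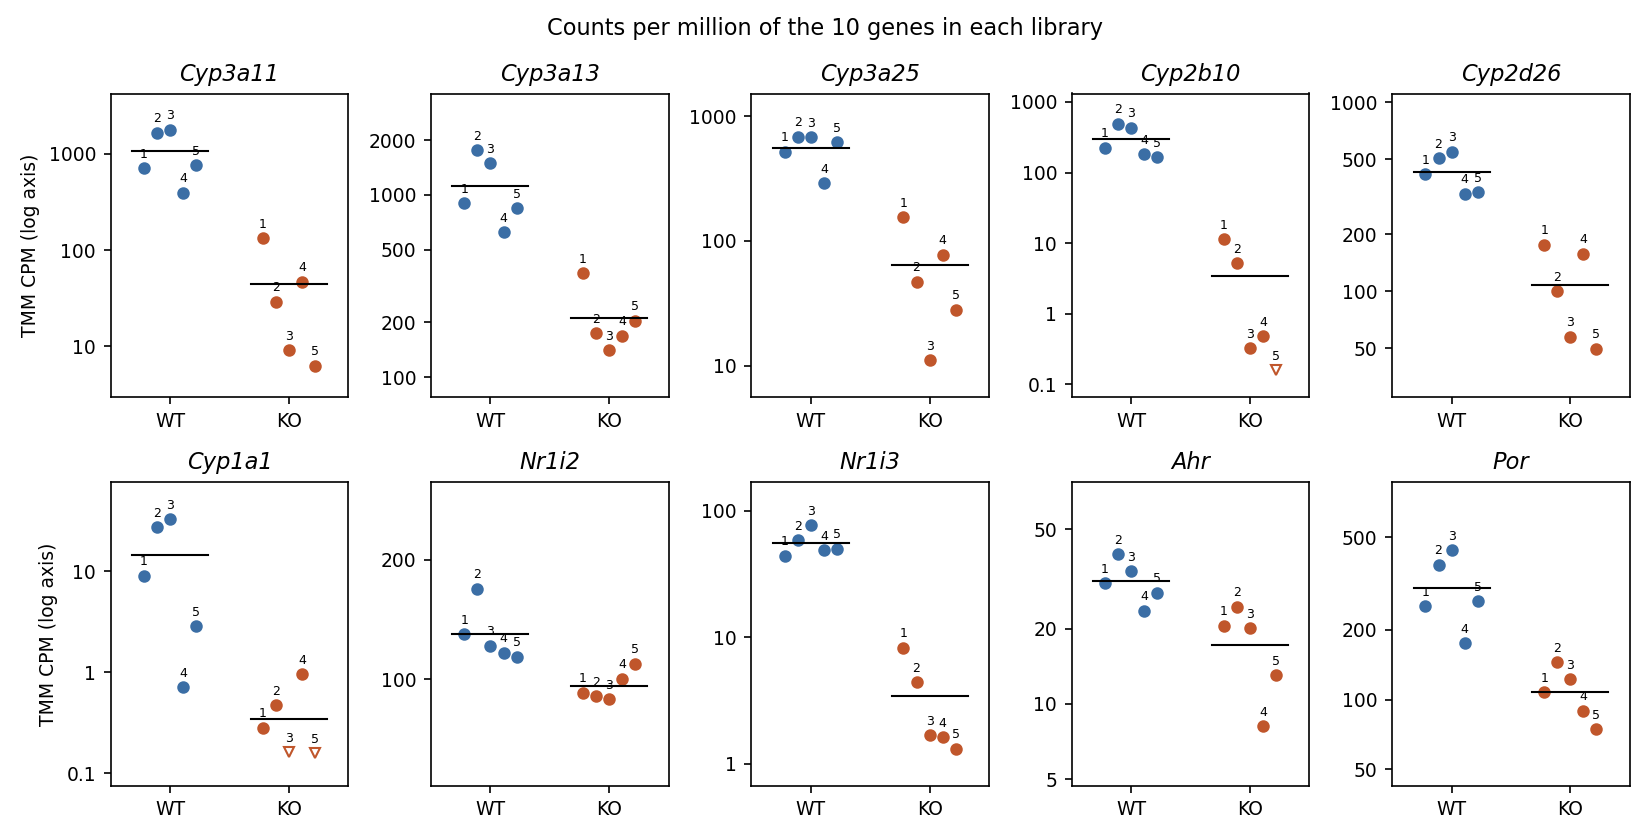
TMM-scaled CPM (log axis) of each gene in the 5 WT and 5 KO libraries; digits give the replicate, lines the group mean, and open triangles mark libraries with 0 counts, drawn at the level of 3 counts. In 8 panels all KO points lie below all WT points, while *Cyp1a1* and *Ahr* overlap between the groups by 1 KO library.

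The CYP3A enzymes come first, as the main drug-oxidizing P450s of the enterocyte, and gene positions are those of GENCODE M21 on GRCm38. *Cyp3a11* (ENSMUSG00000056035, chromosome 5 from 145854426 to 145879964 on the minus strand), the mouse gene usually set beside human *CYP3A4*, had 711, 1662, 1774, 396 and 761 CPM in WT replicates 1 to 5. In KO replicates 1 to 5 it had 132, 29.2, 9.07, 46.9 and 6.30 CPM. The KO libraries were all below the WT libraries and were themselves widely spread, with a highest-to-lowest ratio of 21.0 against 4.48 in WT. Its mean fell from 1061 ± 617 CPM to 44.7 ± 51.5 CPM (SD, n = 5 each), a difference of -4.57 on the log2 scale (with a standard error of 0.85 and an edgeR adjusted p = 0.00343). KO replicate 1 held most of the remaining signal, and leaving that mouse out gave a log2 fold change of -5.54 (edgeR adjusted p = 6.37e-04).

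*Cyp3a13* (ENSMUSG00000029727, chromosome 5 from 137892932 to 137921619 on the minus strand) is a CYP3A enzyme that lies apart from the main *Cyp3a* cluster and is known for its intestinal expression. WT replicates 1 to 5 had 899, 1763, 1491, 623 and 844 CPM, and KO replicates 1 to 5 had 373, 174, 141, 169 and 204 CPM. The 4 KO libraries other than replicate 1 were close together, and none reached the lowest WT library. The log2 fold change was -2.41 (with a standard error of 0.35 and an edgeR adjusted p = 0.000994), from 1124 ± 481 CPM to 212 ± 92.5 CPM (SD, n = 5 each).

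*Cyp3a25* (ENSMUSG00000029630, chromosome 5 from 145977194 to 146009618 on the minus strand), a CYP3A enzyme encoded in the same cluster as *Cyp3a11*, had 518, 685, 674, 291 and 620.3 CPM in WT replicates 1 to 5. The KO replicates 1 to 5 had 155, 47.2, 11.01, 77.6 and 28.02 CPM, again without overlap and again highest in KO replicate 1. It fell by 3.13 on the log2 scale (with a standard error of 0.60 and an edgeR adjusted p = 0.00387). Leaving out KO replicate 1 moved the log2 fold change to -3.77 (edgeR adjusted p = 7.01e-04).

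The makeup of the CYP3A transcripts also differed between the groups, which does not depend on the scaling between libraries. As a share of the length-scaled reads of the 3 genes, *Cyp3a11* made up 20.2%, 26.1%, 29.6%, 18.2% and 20.4% in WT replicates 1 to 5 and 11.5%, 6.56%, 3.25%, 8.89% and 1.48% in KO replicates 1 to 5. The share fell from 22.9 ± 4.78% to 6.33 ± 4.06% (SD, n = 5 each), with all KO libraries below all WT libraries (two-sided exact permutation test, p = 0.00794, the smallest that 5 against 5 can give). The share of *Cyp3a13* rose from 44.5 ± 4.06% to 69.6 ± 14.8% (two-sided exact permutation test, p = 0.00794, n = 5 each). For *Cyp3a25* the shares were 32.6 ± 5.95% and 24.1 ± 11.1% (two-sided exact permutation test, p = 0.19, n = 5 each), and the difference was smaller than the spread among KO mice. *Cyp3a13* was the largest of the 3 shares in all 10 libraries but WT replicate 5. The size of the fall in the *Cyp3a11* share depends on the exon lengths used, since without division by length it was -25.5 in place of -16.6 percentage points (two-sided exact permutation test, p = 0.00794, n = 5 each). *Cyp3a11* and *Cyp3a25* belong to a family of close relatives, and reads may be shared with them.

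**Figure D2:**
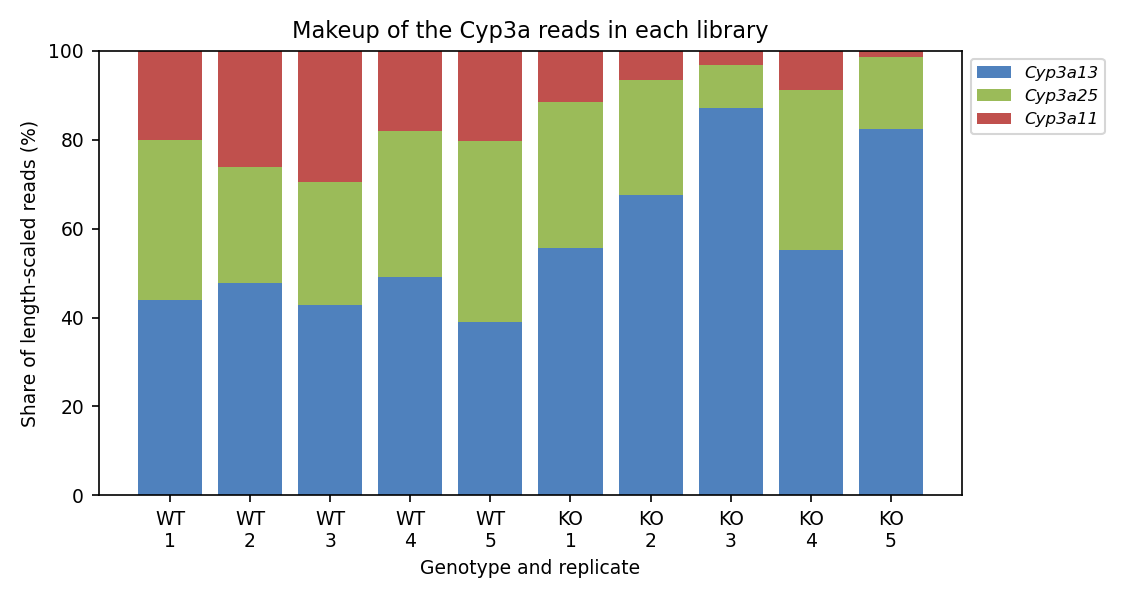
Share (%) of the reads of *Cyp3a13*, *Cyp3a25* and *Cyp3a11*, each divided by its exon length, in every library. *Cyp3a11*, at the top of the bars, takes 18.2% to 29.6% in WT and 1.48% to 11.5% in KO libraries.

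*Cyp2b10* (ENSMUSG00000030483, chromosome 7 from 25897620 to 25926624 on the plus strand) encodes a CYP2B enzyme and is the classical target gene of CAR in mice. Its WT replicates 1 to 5 had 224, 489, 432, 183 and 165 CPM. In KO replicates 1 to 5 it had 11.4, 5.19, 0.324, 0.477 and 0 CPM, where a count of 0 in replicate 5 allows up to 3 counts or 0.157 CPM. KO replicates 1 and 2 retained a low level, and the other KO libraries had between 0 and 10 counts, against 2943 to 7670 counts in WT libraries. The log2 fold change of -6.44 (with a standard error of 1.06 and an edgeR adjusted p = 0.00196) was the lowest of the 10 genes and lower than that of all but 0.0448% of the genes tested. It was -7.64 without KO replicate 1 (edgeR adjusted p = 5.13e-04), so that the size of the fall depends on that mouse.

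*Cyp2d26* (ENSMUSG00000022445, chromosome 15 from 82790101 to 82794294 on the minus strand), a member of the CYP2D family, had 417, 505, 547, 328 and 335 CPM in WT replicates 1 to 5 and 177, 101, 57.8, 158 and 49.9 CPM in KO replicates 1 to 5. KO replicates 1 and 4 were the highest of their group, and still below the lowest WT library. The mean went from 426 ± 98.4 CPM to 109 ± 57.5 CPM (SD, n = 5 each), which on the log2 scale is -1.97 (with a standard error of 0.35 and an edgeR adjusted p = 0.00279).

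*Cyp1a1* (ENSMUSG00000032315, chromosome 9 from 57687928 to 57703824 on the plus strand) oxidizes polycyclic aromatic compounds and is the best known target of the aryl hydrocarbon receptor. It was the most variable gene among WT mice, with 9.08, 27.5, 32.7, 0.714 and 2.86 CPM in replicates 1 to 5, a highest-to-lowest ratio of 45.8. KO replicates 1 to 5 had 0.282, 0.472, 0, 0.953 and 0 CPM, which is 5, 9, 0, 20 and 0 counts, and 0 counts allow up to 0.162 CPM in replicate 3 and 0.157 CPM in replicate 5. WT replicates 2 and 3 were far above the rest, and KO replicate 4 was above WT replicate 4, so that the groups overlapped. The log2 fold change was -5.35 (with a standard error of 1.13 and an edgeR adjusted p = 0.00631), and -6.22 without KO replicate 4 (edgeR adjusted p = 0.00849). It was not past the threshold by limma-voom (adjusted p = 0.0584). *Cyp1a1* and *Cyp2b10* reached the level of the filter in all WT libraries but in 1 and 2 KO libraries, so that these genes entered the test through the WT group.

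The receptors did not change alike. *Nr1i2* (ENSMUSG00000022809, chromosome 16 from 38248323 to 38294824 on the minus strand), which encodes PXR, a sensor of drugs and bile acids, had 129.7, 169, 121, 117 and 114 CPM in WT replicates 1 to 5. In KO replicates 1 to 5 it had 92.5, 90.5, 89.1, 100.1 and 109 CPM. The KO libraries lay within a ratio of 1.23 of each other and just below the lowest WT library. It fell by 0.43 on the log2 scale (with a standard error of 0.12 and an edgeR adjusted p = 0.0195), the smallest change of the 10 genes. It was not past the threshold when libraries were scaled by library size only (edgeR adjusted p = 0.0513) or with the replicate number as a block (edgeR adjusted p = 0.0549).

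*Nr1i3* (ENSMUSG00000005677, chromosome 1 from 171213970 to 171220701 on the plus strand) encodes CAR, which senses drugs and bilirubin. WT replicates 1 to 5 had 44.01, 58.4, 76.3, 48.4 and 50.1 CPM, and the KO libraries had 8.22, 4.41, 1.67, 1.62 and 1.31 CPM. All KO libraries were far below the WT libraries, with the highest values in KO replicates 1 and 2. These mice also retained *Cyp2b10* and had the highest KO sums of the proximal enterocyte markers (5905 and 4087 CPM). From 55.5 ± 12.8 CPM to 3.45 ± 2.95 CPM (SD, n = 5 each), the log2 fold change of *Nr1i3* was -4.01 (with a standard error of 0.48 and an edgeR adjusted p = 0.000419), and -4.62 without KO replicate 1 (edgeR adjusted p = 3.21e-05). *Tomm40l* on the other strand shares 3304 of the 4414 exonic bases of *Nr1i3*, and since the handling of strand is not known, reads may be counted for either gene. *Tomm40l* itself had 1412 counts over all 10 libraries.

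*Ahr* (ENSMUSG00000019256, chromosome 12 from 35497974 to 35535038 on the minus strand), the receptor for dioxin-like and many dietary indole compounds, had 30.5, 39.7, 33.95, 23.6 and 27.9 CPM in WT replicates 1 to 5 and 20.6, 24.5, 20.1, 8.15 and 13.01 CPM in KO replicates 1 to 5. KO replicate 2 reached into the WT range, and KO replicates 4 and 5 were the lowest. The log2 fold change was -0.85 (with a standard error of 0.26 and an edgeR adjusted p = 0.0326). The call rests on single mice, since without WT replicate 1, 2 or 3 or KO replicate 5 the adjusted p was 0.0602, 0.0804, 0.0677 and 0.0636 by edgeR. It was also lost with library size only (edgeR adjusted p = 0.0516). A lincRNA gene, *Gm48236*, shares 127 exonic bases with *Ahr*.

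*Por* (ENSMUSG00000005514, chromosome 5 from 135670033 to 135735326 on the plus strand) is the electron donor shared by all microsomal P450 enzymes. WT replicates 1 to 5 had 253, 381, 439.9, 175 and 265 CPM and KO replicates 1 to 5 had 107, 145, 123, 89.5 and 74.4 CPM. There was no overlap between the groups, and here KO replicate 2 was the highest KO library and replicate 1 was near the middle. The mean fell from 303 ± 106 CPM to 108 ± 27.7 CPM (SD, n = 5 each), which is -1.49 on the log2 scale (with a standard error of 0.26 and an edgeR adjusted p = 0.00243). *Cyp3a11* fell further than *Por*: the log2 ratio of their counts was 1.67 ± 0.394 in WT and -2.05 ± 1.73 in KO libraries (SD, n = 5 each), a difference of -3.72 (two-sided exact permutation test, p = 0.00794). All 5 KO libraries were below all WT libraries in that ratio.

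**Figure D3:**
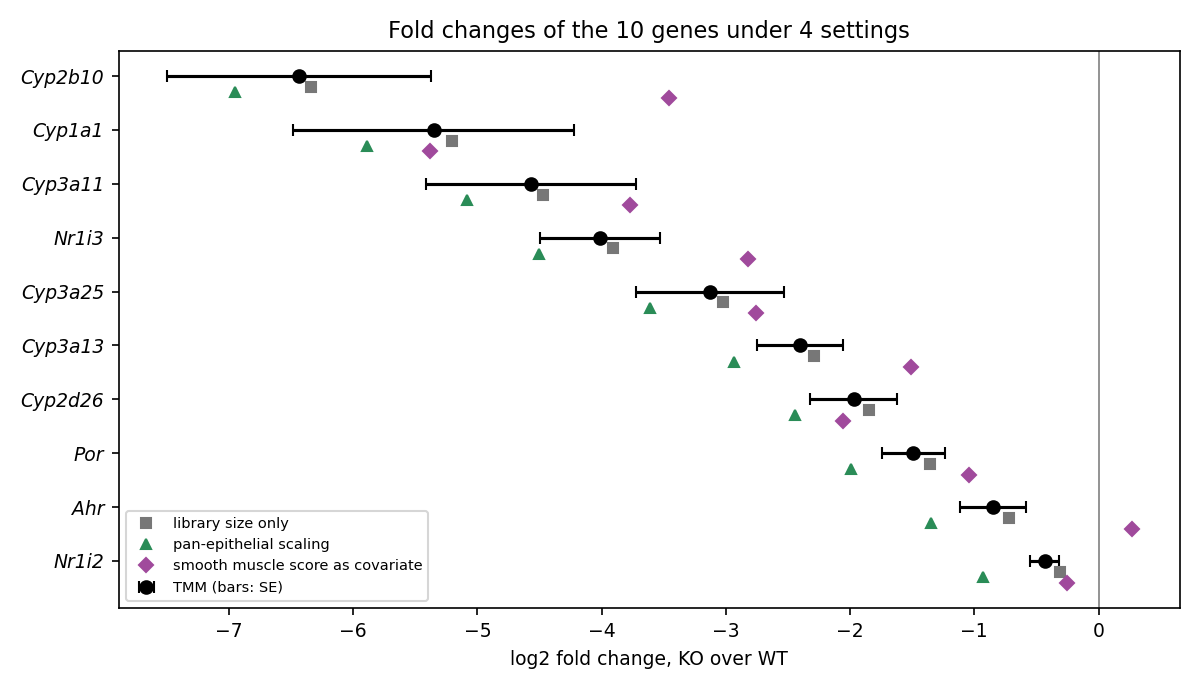
Log2 fold change of KO over WT for each gene under TMM scaling (black, bars give the standard error), library size only, scaling to pan-epithelial markers, and TMM with a smooth muscle score as covariate. All values are below 0 but that of *Ahr* with the covariate (0.27), and scaling to epithelial markers moves every gene further down.

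The direction of all 10 genes was the same under TMM, RLE, library size and pan-epithelial scaling. Scaling by library size moved the median log2 fold change of all genes from 0.03 to 0.15, and scaling to the pan-epithelial markers moved it to -0.45, with medians of -2.66 and -3.27 over the 10 genes. Higher genes made up 53.5% of all calls with TMM, 69.4% with library size and 8.48% with pan-epithelial scaling. With the mean log2 CPM of the smooth muscle markers as a covariate, none of the 10 genes was past the threshold by edgeR (adjusted p from 0.166 for *Nr1i3* to 0.767 for *Ahr*), and of all 15610 genes only 10 were called higher and 8 lower. Every KO library had a higher score than every WT library, so that the score and the genotype cannot be told apart.

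Levels can be compared between genes only per length, here as RPKM, the CPM divided by the kilobases of merged exons. In WT mice the order of the mean levels was *Cyp3a13* (380.2 ± 163), *Cyp3a25* (268 ± 78.3), *Cyp2d26* (238 ± 54.9), *Cyp3a11* (208 ± 121), *Cyp2b10* (141 ± 71.4), *Por* (75.3 ± 26.4), *Nr1i2* (50.9 ± 8.80), *Nr1i3* (12.6 ± 2.89), *Cyp1a1* (5.23 ± 5.25) and *Ahr* (5.05 ± 0.991 RPKM, SD, n = 5 each). Neighbours kept this order in all 5 WT libraries only for *Cyp2b10* over *Por*, *Nr1i2* over *Nr1i3* and *Nr1i3* over *Cyp1a1*. The first 4 genes did not differ from their neighbours beyond their spread, and *Cyp1a1* was above *Ahr* in only 2 of 5 libraries.

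In KO mice *Cyp3a13* (71.7 ± 31.3 RPKM) and *Cyp2d26* (60.7 ± 32.1 RPKM) led, followed by *Nr1i2* (37.7 ± 3.30 RPKM), *Cyp3a25* (30.6 ± 27.2 RPKM) and *Por* (26.8 ± 6.88 RPKM). *Cyp3a11* (8.77 ± 10.1 RPKM) was below *Por* in all 5 libraries, and *Ahr* (2.80 ± 1.07 RPKM), *Cyp2b10* (1.65 ± 2.33 RPKM), *Nr1i3* (0.781 ± 0.668 RPKM) and *Cyp1a1* (0.123 ± 0.142 RPKM, SD, n = 5 each) came last. *Cyp2b10*, above *Por* in every WT library, was thus below *Nr1i2* and *Por* on average in KO mice. Only *Por* over *Cyp3a11* and *Nr1i3* over *Cyp1a1* kept their order as neighbours in all 5 KO libraries. The length used for *Cyp3a11*, 5093 bases, merges all annotated transcripts and would understate its level if a shorter one was expressed.

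**Figure D4:**
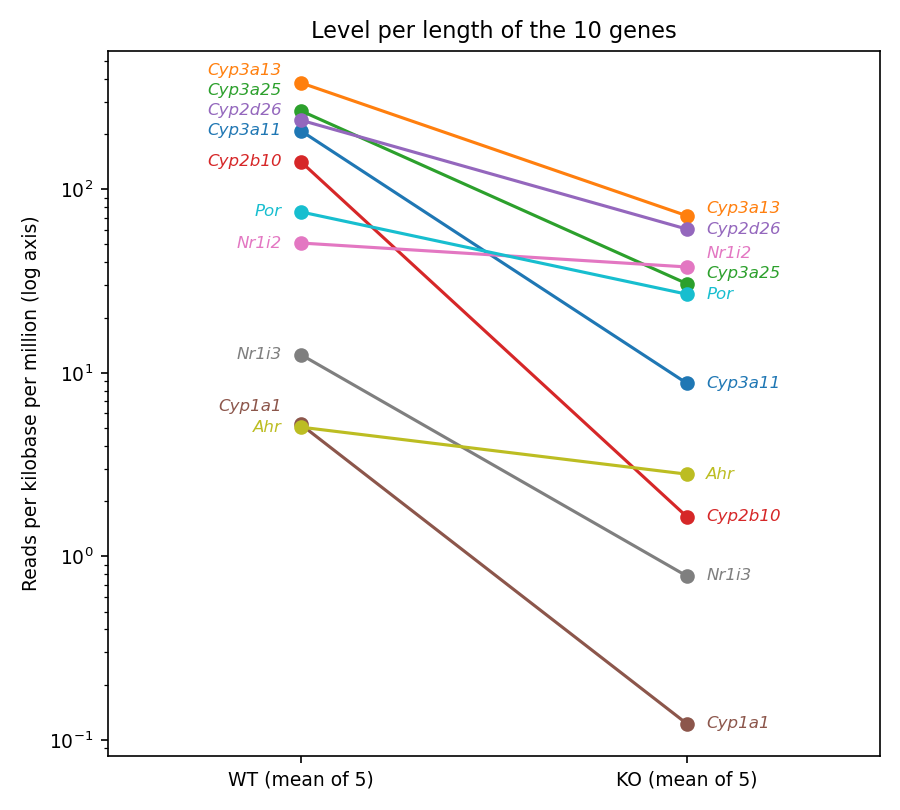
Mean level per length (RPKM, log axis) of the 10 genes in WT and KO mice, 5 libraries each, joined by lines. The lines of *Cyp2b10* and *Cyp1a1* are the steepest, and that of *Nr1i2* is nearly flat (50.9 to 37.7).

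Within each group, the highest and lowest values of the 10 genes often fell in the same libraries. Whether the genes moved together was not tested. Among WT mice, replicates 2 and 3 had the highest CPM for 5 genes each, and replicate 4 the lowest for 7 of the 10. In the KO group, replicate 1 had the highest CPM for 6 of the 10 genes, replicate 5 the lowest for 5 and replicate 3 for 3, while both had 0 counts of *Cyp1a1*. The same KO replicate 1 had the highest level of the proximal enterocyte markers among KO libraries (5905 CPM summed over 10 genes), and WT replicate 4 the lowest among WT libraries (16790 CPM). KO replicate 4 had the lowest sum of these markers (2047 CPM) and the highest sum of smooth muscle markers (11430 CPM). It was the lowest KO library for 1 of the 10 genes and the highest for 1. *Cyp1a1*, *Nr1i2*, *Ahr* and *Por* were highest in KO libraries other than replicate 1. The part of the marker levels in these orders was not tested.

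Likeness between profiles was measured as the root-mean-square difference of log2 CPM over the 10 libraries, each gene centred on its own mean. Among the 10 genes the nearest pairs were *Ahr* and *Por* (0.422), *Cyp3a13* and *Cyp2d26* (0.513) and *Nr1i2* and *Ahr* (0.536). Across all genes tested, the gene nearest to *Cyp2b10* was *Cyp2c66* (0.602) and that nearest to *Cyp2d26* was *Cyp2c23* (0.208), both P450 genes of the CYP2C family. *Cyp2c66* itself went from 127 CPM in WT to 1.12 CPM in KO libraries. The nearest to *Cyp3a11* was *Leap2* (0.671), to *Cyp3a13* *Zfp92* (0.204), to *Cyp3a25* *Rdh7* (0.421), to *Cyp1a1* *Bbox1* (0.863), to *Nr1i2* *Morf4l2* (0.0973), to *Nr1i3* *Slc4a5* (0.438), to *Ahr* *Ttc37* (0.176) and to *Por* *Lipa* (0.206). The distance is small for any pair of genes that change little, as for *Nr1i2*.

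Other genes of the same pathways were read from lists written out by role, and their counts stand beside 13.9% of all genes tested that were called lower and 16.0% called higher. Differences between the lists were not tested. Of the 6 other *Cyp3a* genes only *Cyp3a44* and *Cyp3a59* had enough counts for the test, and neither was past the threshold. *Cyp3a44* had 1.78 CPM in WT and 5.96 CPM in KO mice (log2 fold change 1.74, edgeR adjusted p = 0.0694), and *Cyp3a59* had 0.875 and 0.739 CPM. Of 12 other *Cyp2b* and *Cyp2d* genes, only *Cyp2d22* had enough counts, and it fell from 63.8 ± 10.7 CPM to 29.8 ± 10.2 CPM (log2 fold change -1.10, edgeR adjusted p = 0.00505, n = 5 each). The other *Cyp2b* genes had at most 1 count in all 10 libraries together.

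Of 14 further target genes attributed to PXR and CAR, 10 fell, 1 rose and 3 did not pass, with a median log2 fold change of -1.87 beside 0.03 over all genes tested. With pan-epithelial scaling 11 were called lower and 0 higher, beside 48.9% of all genes tested called lower with that scaling. *Gstm3*, a glutathione transferase, fell by 4.94 on the log2 scale (edgeR adjusted p = 0.000844), from 664 to 21.7 CPM. *Abcc2*, the apical efflux pump for conjugates, had a log2 fold change of -2.60 (edgeR adjusted p = 0.00276), and *Aldh1a1*, a retinal dehydrogenase, one of -1.02 (edgeR adjusted p = 0.021). The gene that rose was the sulfotransferase *Sult1a1* (log2 fold change 1.58, edgeR adjusted p = 0.0238), and those that did not pass were *Cyp2c55*, *Abcc3* and *Abcb1a*, the drug efflux pump P-glycoprotein, with 524 CPM in WT and 533 CPM in KO mice. These 4 were named after their values were seen.

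Of the 10 partners and cofactors of PXR and CAR, 9 were tested, 2 fell and 7 did not pass (median log2 fold change -0.07), a count near the share of all genes. *Ppargc1a*, a coactivator of nuclear receptors, fell by 1.47 (edgeR adjusted p = 0.0016) and *Ncor1*, a corepressor, by 0.63 on the log2 scale (edgeR adjusted p = 0.0236). *Rxra*, the shared dimer partner, showed a difference of -0.07 on the log2 scale (with a standard error of 0.09 and an edgeR adjusted p = 0.556), which is within the spread between mice. *Hnf4a*, an activator of many P450 genes, showed one of 0.27 (with a standard error of 0.17 and an edgeR adjusted p = 0.234). Both were named after their values were seen. With pan-epithelial scaling, which called 7632 of all 15610 genes lower, 7 of the 9 were called lower.

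In the AHR pathway, 1 of 5 partners and repressors fell, again near the share of all genes, and 4 did not pass (median 0.09 on the log2 scale). Library size only called 2 of the 5 higher, beside 3608 of all 15610 genes. Pan-epithelial scaling called 3 of the 5 lower, beside 48.9% of all genes. The gene that fell was *Ahrr*, the repressor of the receptor and itself a target (log2 fold change -1.12, edgeR adjusted p = 0.0109). Of the 6 other AHR targets, 4 were tested and 2 fell, *Nqo1*, a quinone reductase (log2 fold change -1.11, edgeR adjusted p = 0.00291), and *Ugt1a6a*, a glucuronosyltransferase whose exons overlap other *Ugt1a* genes (log2 fold change -1.89, edgeR adjusted p = 0.000353). *Cyp1b1* and *Tiparp* did not pass, with log2 fold changes of -0.08 and -0.39, and *Cyp1a2* had no count in any library.

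Beside *Por*, other electron donors and the enzymes of heme synthesis were listed, of which 7 of 12 fell and 5 did not pass (median log2 fold change -0.52). *Cyb5r3*, the cytochrome b5 reductase, fell by 2.16 on the log2 scale (edgeR adjusted p = 0.000254), *Cyb5b* by 1.07 (edgeR adjusted p = 0.000793) and *Pgrmc1*, a heme-binding partner of P450 enzymes, by 0.51 (edgeR adjusted p = 0.0163). Of the 8 genes of heme synthesis, *Alas1* (also in the list of PXR and CAR targets), *Cpox* and *Ppox* fell, and the other 5 were those that did not pass.

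**Figure D5:**
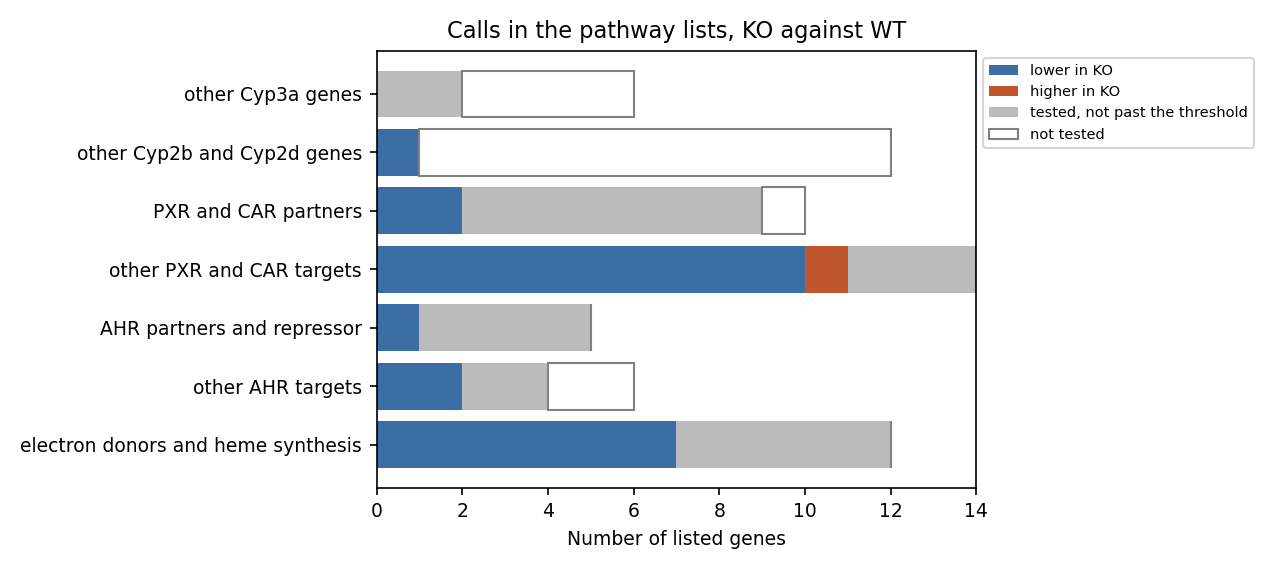
Number of genes in each pathway list that were lower in KO mice, higher in KO mice, tested but not past the threshold, or not tested for low counts or no match. Targets of PXR and CAR (10 of 14 lower) and electron donors with heme synthesis (7 of 12 lower) hold most of the lower genes, beside 13.9% of all genes tested.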

How the data were processed

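The authors deposited 1 table per mouse (10 mice) with raw read counts for Ensembl gene IDs, whole numbers without normalization. The submitters' processing notes list FastQC 0.11.9, Trimmomatic, HISAT2 2.0.4, SAMtools 1.3.1 and DESeq2 1.14.1 with the build GRCm38 (mm10). Not given in the sources used here were the read counter, its annotation and its handling of strand. Symbols, positions and exon lengths are from GENCODE M21 (GRCm38), with a symbol for 34490 of 35275 IDs, and promoters from RefSeq (GRCm38.p6).

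KO was compared with WT by edgeR 4.0.16 (R 4.3.3) with the quasi-likelihood test and TMM scaling. Genes had to pass filterByExpr with a count of 10 and a total of 15 as minima, and p-values were adjusted over all genes tested by Benjamini-Hochberg, with 0.05 as threshold. Standard errors are the log2 fold change divided by the square root of its F statistic. CPM (with TMM-scaled library sizes) and RPKM (CPM per kilobase of exons) were computed, and log2 CPM has a prior count of 2. A share or ratio was tested by exact permutation, the ratio with 0.5 added to each count. A count of 0 allows up to 3 counts at 95% confidence, which covers counting error only. Alternatives were limma-voom (limma 3.58.1), DESeq2 1.42.0, other scalings and filters, robust dispersion, a replicate block, a smooth muscle score as covariate and leaving out each mouse. Scripts were tested on simulated counts.

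The 10 genes and the lists were chosen with earlier results of these data known. Named genes are all 10, up to the 3 most abundant of each list among called genes without overlap (otherwise among tested genes), the nearest profile of each gene, and *Slc39a14*. *Cdh1*, *Vil1*, *Krt20*, *Alb*, *Apoa2*, *Cps1*, *Tat*, *Cyp2e1*, *Fabp6*, *Hoxb9*, *Gata4*, *Lct*, *Cyp1b1*, *Tiparp*, *Cyp1a2*, *Alas1*, *Cpox*, *Ppox* and genes said to be so were named after their values were seen. *Xist* was read with the Y-linked genes as a check of sex. *Cyp2d13* was not matched. Macrophage, pancreatic and B or plasma cell markers were also listed: of those tested, 2 of 8 macrophage genes were lower, and none of 2 pancreatic and 6 B or plasma cell genes passed.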

Additional observations from a re-analysis of the deposited data

Results flagged for a closer look

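Of 20 groups of 5 libraries (10 genes, 2 genotypes), 2 held a library whose gap to the nearest other as a part of the group's range was above Dixon's 95% critical value, and chance alone gives about 1 in 20. *Cyp3a13* in KO replicate 1 was 373 CPM, against 141 to 204 CPM in the other KO libraries. *Nr1i2* in WT replicate 2 was 169 CPM, against 114 to 130 CPM in the other WT libraries, and leaving it out gave a log2 fold change of -0.33, still past the threshold by edgeR.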

How the results depend on the processing

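Over 10 genes, 10 alternatives and 10 libraries left out in turn, 182 of 200 values kept their direction and their side of the threshold, 17 lost the call and 1 reversed. With the smooth muscle score as covariate no gene was called (0 of 10) and the log2 fold changes were -3.77 (*Cyp3a11*), -1.51 (*Cyp3a13*), -2.76 (*Cyp3a25*), -3.46 (*Cyp2b10*), -2.06 (*Cyp2d26*), -5.38 (*Cyp1a1*), -0.25 (*Nr1i2*), -2.82 (*Nr1i3*) and -1.04 (*Por*), while *Ahr* reversed to 0.27. The other losses were *Cyp1a1* by limma-voom (-5.41), *Nr1i2* (-0.31) and *Ahr* (-0.72) with library size only, *Nr1i2* with the replicate block (-0.42), and *Ahr* without WT replicate 1, 2 or 3 or KO replicate 5 (-0.86 to -0.75). Over all 10 mice left out in turn *Ahr* was between -1.02 and -0.67, and both of these ends kept the call. The number of called genes among the 10 was 9 or 10 with any mouse left out. Across all genes, 707 were higher and 7632 lower with pan-epithelial scaling, and 10 and 8 with the covariate, while leaving out a mouse gave 1634 to 2944 higher and 1573 to 2563 lower genes, with the fewest higher genes without WT replicate 2. Pan-epithelial scaling called 7 partners of PXR and CAR and 3 of AHR lower and 0 PXR and CAR targets higher. Library size called 2 AHR partners higher, beside 3608 of all 15610 genes. The causes were not tested.

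Replicate numbers were shared between the groups, and the labels do not say what the number stands for. Deviations of same-numbered mice had correlations of -0.167 to 0.177, over 0.1 in 1 of 5 pairs, with 1 of 5 closest to its own number. With 5 pairs this cannot exclude a pairing. With the replicate block the differences in *Cyp3a11* share (-16.6 percentage points) and in the log2 ratio to *Por* (-3.72) had an exact paired permutation p of 0.0625, the smallest that 5 pairs allow. Another prior count for genes below the filter was not run, since all 10 genes were tested. Low counts limit *Cyp1a1* and *Cyp2b10* in KO mice.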

Other observations

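The 6 listed *Cyp2d* genes with too few counts for the test are given by their counts. *Cyp2d34* had 0, 0, 0, 1 and 1 counts in WT replicates 1 to 5 and 0, 202, 24, 6 and 6 counts in KO replicates 1 to 5, most of them in KO replicate 2. *Cyp2d12* had 0, 0, 0, 0 and 1 counts in WT and 2, 20, 21, 3 and 9 counts in KO replicates 1 to 5, so that the groups did not overlap. *Cyp2d40* had 0, 1, 0, 0 and 0 counts in WT and 0, 16, 5, 31 and 6 counts in KO replicates 1 to 5. *Cyp2d9* had 1, 1, 0, 1 and 0 counts in WT and 0, 22, 5, 0 and 1 counts in KO replicates 1 to 5. *Cyp2d10* had 7, 13, 6, 3 and 3 counts in WT and 1, 42, 12, 9 and 12 counts in KO replicates 1 to 5, and the groups overlapped. *Cyp2d11* was counted 3 times in WT replicate 1 and 1 time in KO replicate 5, and in no other library. *Cyp3a44*, which was tested and did not pass, had 12 counts in KO replicate 1, fewer than any WT library (19 to 55), and 231, 79, 231 and 33 counts in KO replicates 2 to 5. Reads of these genes can be shared with close relatives.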
